A study of Bos taurus with 2 samples.

Results

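Activin A and NODAL are secreted ligands of the TGF-beta family that use the same receptors and the same intracellular messengers, SMAD2 and SMAD3. The 9 genes described here are parts or well-known targets of that pathway: the ligands NODAL and GDF3, the secreted inhibitors LEFTY2, CER1 and FST, the intracellular brakes SMAD7, SKIL and PMEPA1, and the transcription factor EOMES. They were chosen by symbol and not by a threshold on measured values, because activin A was added to the medium in which the blastoids formed. All 9 symbols were found among the 35643 features of both libraries, 19527 of which carried a symbol.

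A blastoid is a blastocyst-like structure grown from cultured stem cells. In this study bovine blastoids were aggregated in microwells from 8 bEPSCs, 8 bXEN cells and 16 bTSCs each, lines commonly used as culture counterparts of the epiblast, the hypoblast (primitive endoderm) and the trophectoderm. The aggregation medium held 10 ng/ml activin A, 20 ng/ml LIF, the GSK3 inhibitor CHIR99021 and the CEPT survival cocktail. The comparison was with bovine blastocysts at day 8, and both sources were wild type and frozen before nuclei were isolated. No activin-free blastoid or activin-treated embryo was analysed here, so the activin supplement and every other difference between a blastoid and an embryo cannot be told apart. How many structures or embryos were pooled per library is not given in the sources used here.

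In the pathway, NODAL and activin bind type II receptors (ACVR2A, ACVR2B) and type I receptors (ACVR1B, ACVR1C), which phosphorylate SMAD2 and SMAD3. These enter the nucleus with SMAD4 and act with partners such as FOXH1. NODAL also needs an EGF-CFC co-receptor, whereas activin does not. LEFTY2 and CER1 block NODAL outside the cell and FST binds activin, so several targets of the pathway restrain it. In early mammalian embryos the pathway is known for its part in the epiblast and in hypoblast and mesendoderm formation.

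Each group was 1 library of single nuclei, so no test across replicates, p-value or replicate error was possible, and each difference below is one between these libraries. After filtering, the blastoid library held 1914 barcodes with 7481886 UMIs (unique molecular identifiers, counts of captured RNA molecules) and a median of 2008 UMIs. The blastocyst library held 827 barcodes with 6861558 UMIs and a median of 7661. No kept barcode was shared by the libraries (0, against 1 before filtering). Levels are CPM, the UMIs of a gene scaled to a fixed total of UMIs in the same sum, with exact Poisson 95% intervals, which cover counting error only. Values are counts of 3′ tags without correction for transcript length, so levels are compared within a gene and never between genes. In sums over a library, fewer nuclei that express a gene and less RNA per nucleus cannot be told apart.

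Each library was clustered without the 9 genes, the other pathway genes and the cell type markers. In the blastocyst, 396 nuclei were hypoblast-like, 233 trophectoderm-like and 74 epiblast-like, and 124 shallow nuclei with a median of 1752 UMIs stayed unnamed. The epiblast-like cluster was named from NANOG, SOX2, PRDM14, LIN28B and DPPA4, and it also held the hypoblast factor HNF4A at 578 CPM, against 547 CPM in the hypoblast-like cluster. The latter in turn had the epiblast markers SOX2, PRDM14 and DPPA3 raised. NANOG was at 124 CPM in the epiblast-like and 19.9 CPM in the hypoblast-like cluster, and PRDM14 at 65.4 and 56.4 CPM. The summed epiblast markers were at 1455 and 1068 CPM and the summed hypoblast markers at 5134 and 8335 CPM, so these clusters were only partly separated. In the blastoid, 154 nuclei with a median of 14620 UMIs were trophectoderm-like. That name rested on 5 trophectoderm markers (GATA2, GATA3, TFAP2A, TFAP2C, TEAD3), while 4 hypoblast markers (GATA6, LAMA1, DAB2, LRP2) were raised there too. A cluster of 141 nuclei with a median of 10924 UMIs stayed unnamed, and its leading genes were NLGN1, DCC and LDB2. The other 1619 blastoid barcodes, 84.6% of the total, were shallow (median 1922 UMIs) and drew 15.6% of their UMIs from ribosomal protein genes. They are called ribosomal-rich below. No blastoid cluster met the naming rule for epiblast or hypoblast.

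Between the whole libraries the 9 genes did not move as a block. The secreted inhibitors LEFTY2 and FST and the membrane protein PMEPA1 were many-fold higher in the blastoid, the intracellular inhibitor SMAD7 and the ligand GDF3 were lower, and NODAL and SKIL lay within 2-fold. Of the 9 genes, 8 had the 10 UMIs in the pair of libraries that were required for a gene to be counted, and CER1 did not. Of these 8, 4 were at least 2-fold higher in the blastoid, where 24.2% of all 19221 counted genes were. The 4 were LEFTY2, FST, PMEPA1 and EOMES, and the interval of EOMES included 1 (0.888 to 18.8). Another 2 were at least 2-fold lower, where 20.7% of all counted genes were. The median log2 ratio of the 8 was 1.17, and that of all counted genes was -0.08. With changes past 2-fold this common between the libraries, the counts of the 9 genes are a description and set them apart from no other genes.

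**Figure D1:**
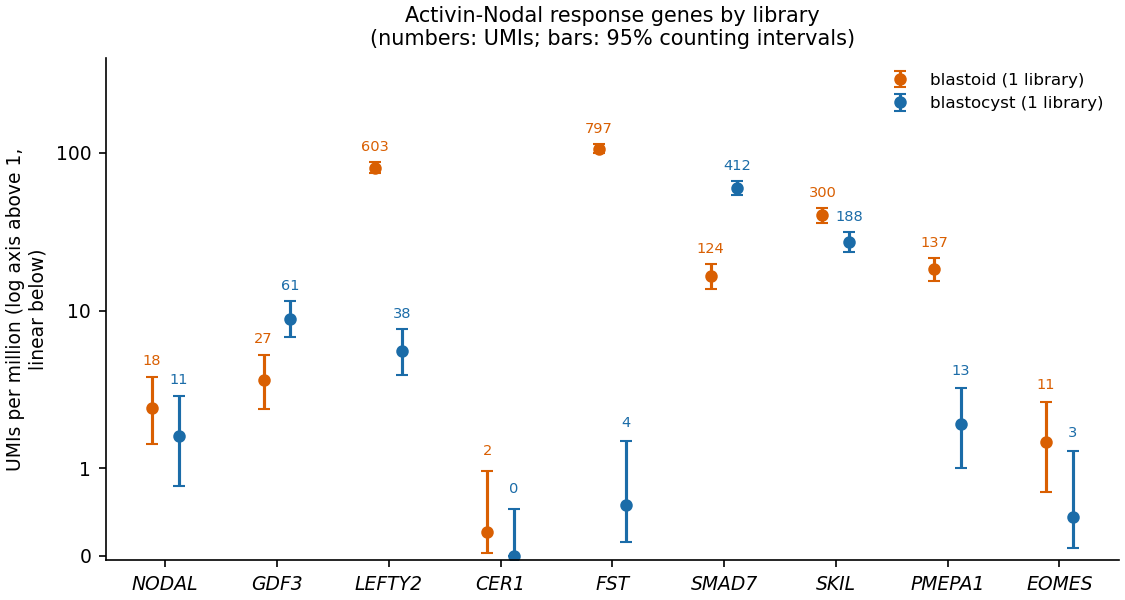
Level of each of the 9 genes in the blastoid and the blastocyst library, in CPM on an axis that is logarithmic above 1 and linear below, with 95% counting intervals and the UMI count printed above each point. LEFTY2, FST and PMEPA1 sit higher in the blastoid and SMAD7 and GDF3 higher in the blastocyst, with intervals that do not overlap.

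The ligands were sparse in both libraries. NODAL, the ligand whose name the pathway carries, had 18 blastoid UMIs (2.41 CPM, 1.43 to 3.80) and 11 blastocyst UMIs (1.60 CPM, 0.80 to 2.87). Its ratio of 1.501 had a counting interval of 0.671 to 3.52, so neither a difference nor its absence was detectable at this depth. GDF3, a NODAL-related ligand of pluripotent cells, had 27 blastoid UMIs (3.61 CPM) and 61 blastocyst UMIs (8.89 CPM). It was 2.46-fold lower in the blastoid (1.54 to 4.03).

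Within the blastocyst GDF3 had UMIs in each of the 4 clusters and NODAL in 3 of them. NODAL had 4 UMIs in the epiblast-like cluster (5.23 CPM, 1.43 to 13.4), 6 in the hypoblast-like cluster (1.81 CPM, 0.664 to 3.94), 1 in the shallow unnamed cluster and 0 in the trophectoderm-like cluster, which allows up to 1.30 CPM at 3 counts. The epiblast-like and hypoblast-like levels did not differ beyond counting error (ratio 2.89, 0.601 to 12.2). GDF3 was at 15.7 CPM in the epiblast-like cluster (12 UMIs in 12 nuclei), 7.54 CPM in the hypoblast-like cluster and 6.06 CPM in the trophectoderm-like cluster. The shallow unnamed cluster had GDF3 at 21.3 CPM from 10 UMIs (10.2 to 39.2), which overlapped the epiblast-like interval of 8.11 to 27.4. GDF3 was 2.59-fold higher in the epiblast-like than in the trophectoderm-like cluster (1.10 to 6.04), and its 2.08-fold excess over the hypoblast-like cluster was within counting error (0.954 to 4.303).

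In the blastoid both ligands had UMIs in all 3 clusters. NODAL was at 5.27 CPM in the unnamed cluster (10 UMIs in 8 of 141 nuclei) against 1.65 CPM in the trophectoderm-like cluster and 1.26 CPM in the ribosomal-rich barcodes, with 4 UMIs in each of the latter. The ratio of the unnamed to the trophectoderm-like cluster, 3.18, had an interval of 0.918 to 13.9. GDF3 had 1 UMI in the unnamed cluster, 14 in the trophectoderm-like cluster (5.79 CPM, 3.16 to 9.71) and 12 in the ribosomal-rich barcodes (3.79 CPM, 1.96 to 6.63). It was 10.99-fold lower in the unnamed than in the trophectoderm-like cluster, with an interval of 1.67 to 465. The 14 UMIs came from 9 nuclei, and 5 of these nuclei carried 71.4% of them. In the trophectoderm-like clusters GDF3 stood at 5.79 CPM in the blastoid and 6.06 CPM in the blastocyst, a ratio of 0.955 with an interval of 0.422 to 2.16.

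The secreted inhibitors FST and LEFTY2 were both higher in the blastoid. FST encodes follistatin, which binds activin and keeps it from its receptors. It had 797 blastoid UMIs (106.5 CPM, 99.3 to 114) and 4 blastocyst UMIs (0.583 CPM, 0.159 to 1.49), a 183-fold ratio (71.1 to 672). LEFTY2, a feedback inhibitor of NODAL and a direct target of SMAD2/3, had 603 blastoid UMIs (80.6 CPM, 74.3 to 87.3) and 38 blastocyst UMIs (5.54 CPM, 3.92 to 7.60). Its ratio was 14.6 (10.5 to 20.8). A UMI of FST was found in 28.4% of barcodes (26.4% to 30.5%, exact Clopper-Pearson interval) and one of LEFTY2 in 25.0% (23.1% to 27.0%). In the deeper blastocyst library the shares were 0.484% and 3.75%. Free RNA can also give a barcode a UMI, so these are shares of barcodes with a UMI and not of nuclei that express the gene.

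After thinning every barcode to 2000 UMIs, with shallower barcodes left out (973 blastoid and 753 blastocyst barcodes remained), FST was detected in 20.8% of blastoid and 0 of 753 blastocyst barcodes. At that depth 0 of 753 allows a share of barcodes with a UMI of up to 0.398% at 3 counts and 0.489% by the exact Clopper-Pearson interval. LEFTY2 was detected in 19.9% and 0.93%. The direction was that of the summed levels. CER1, which encodes the NODAL, BMP and WNT antagonist Cerberus and is a marker of the anterior hypoblast, had 2 blastoid UMIs and 0 blastocyst UMIs. A count of 0 there allows up to 0.437 CPM, so nothing can be said of CER1 beyond its being near the limit of detection in both.

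Within the blastoid, FST and LEFTY2 were highest in the ribosomal-rich barcodes. LEFTY2 stood at 152 CPM there, 36.9 CPM in the unnamed cluster and 21.9 CPM in the trophectoderm-like cluster, and the intervals did not overlap. FST stood at 176, 97.9 and 22.7 CPM in the same order, with no overlap. The ribosomal-rich barcodes exceeded the trophectoderm-like cluster 6.93-fold for LEFTY2 (5.21 to 9.38) and 7.73-fold for FST (5.85 to 10.4). Those barcodes also differed from the trophectoderm-like cluster across the transcriptome: 22.5% of counted genes were at least 2-fold higher and 38.0% at least 2-fold lower, with a median log2 ratio of -0.48 over all of them. Of the 9 genes, 6 were counted in this pair, 3 higher (LEFTY2, FST, PMEPA1) and 1 lower (SMAD7). Markers of several cell types were raised in the ribosomal-rich barcodes as well, 9 of 26 in the hypoblast list (among them APOA1, TTR and AFP), 9 of 17 in the trophectoderm list (among them CDX2, KRT8 and ASCL2) and SOX2 and ZFP42 of the epiblast list. AFP was at 259.5 CPM there, 42.2 CPM in the trophectoderm-like and 40.01 CPM in the unnamed cluster. In the same order the summed trophectoderm markers were at 12555, 3798 and 1981 CPM, the summed hypoblast markers at 4257, 5676 and 1723 CPM, the summed epiblast markers at 308, 443 and 651 CPM and the summed neural markers at 592, 177 and 1838 CPM. Their part in the levels of FST and LEFTY2 was not tested.

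The shape of the distribution differed between clusters. In the ribosomal-rich barcodes the UMIs of FST were spread almost as depth alone would spread them, with a variance of 1.15 times the Poisson value given each barcode's depth, and at most 4 UMIs in a barcode. In the unnamed cluster that figure was 7.59. There 60 of 141 nuclei had a UMI of FST, the highest nucleus had 19, and 5 nuclei held 44.1% of the 186 UMIs. LEFTY2 had values of 1.35 in the ribosomal-rich barcodes and 2.69 in the unnamed cluster, although its highest single barcode was a ribosomal-rich one, with 14 UMIs against 8 in the unnamed cluster. FST was 4.31-fold higher in the unnamed than in the trophectoderm-like cluster (3.17 to 5.93), and LEFTY2 1.68-fold higher (1.16 to 2.45).

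**Figure D2:**
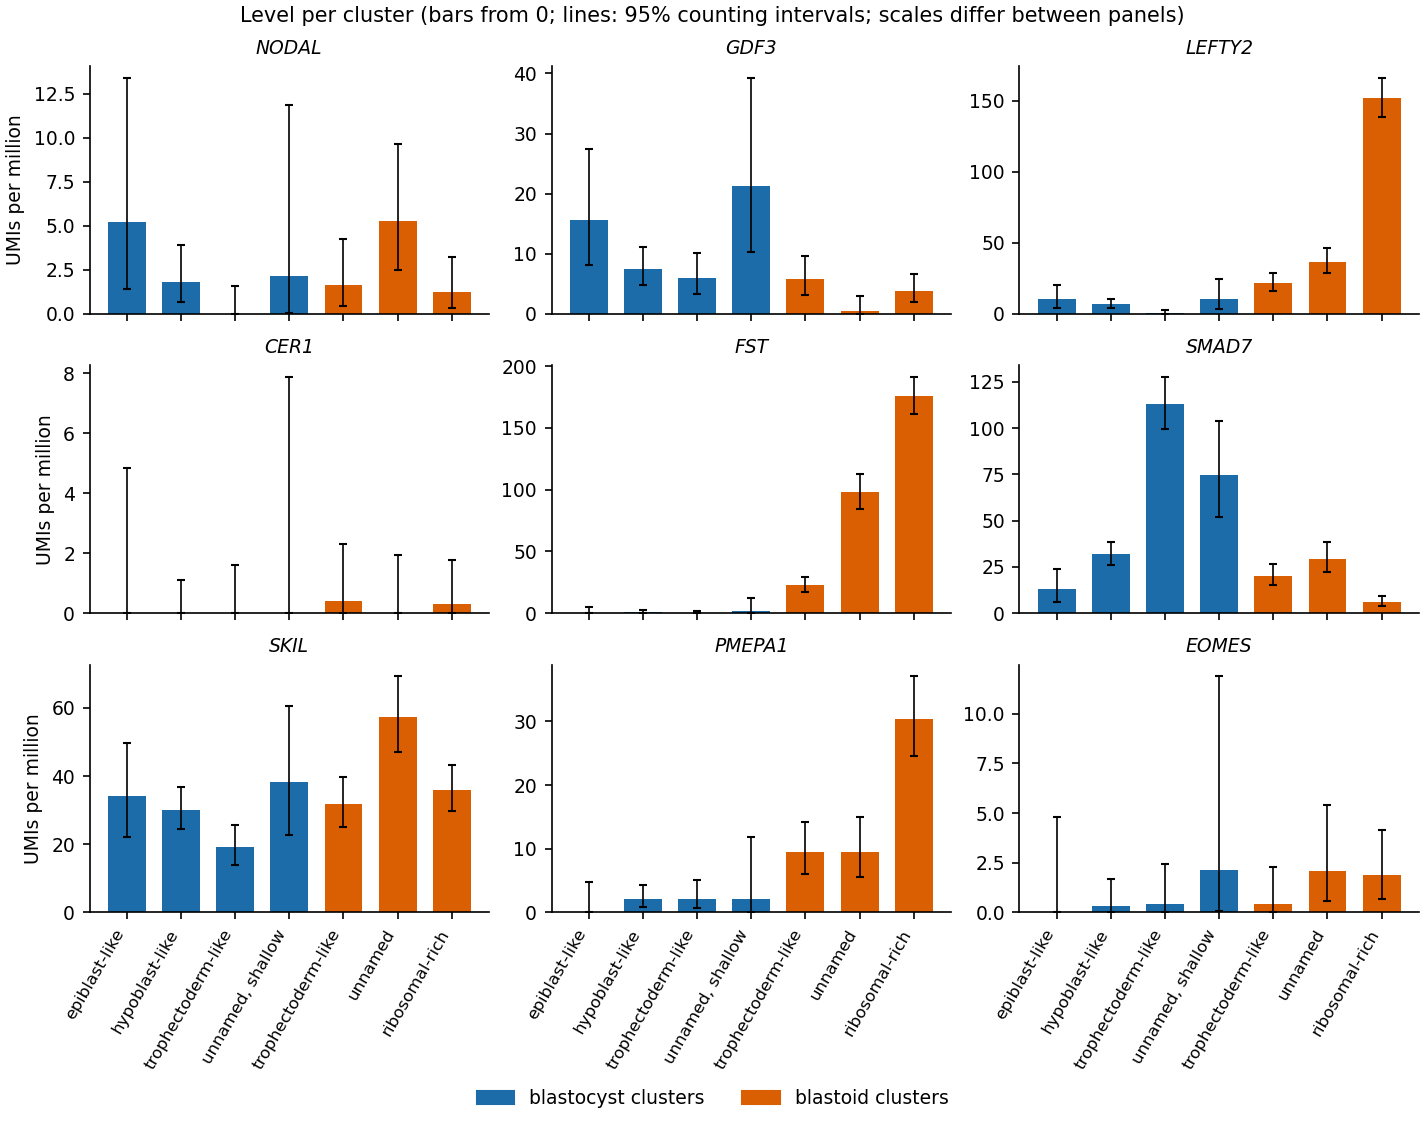
Level of each gene in the 4 blastocyst clusters and the 3 blastoid clusters, in CPM with 95% counting intervals, each panel on its own scale. LEFTY2, FST and PMEPA1 are highest in the ribosomal-rich blastoid barcodes, SMAD7 is highest in the trophectoderm-like cluster of the blastocyst, and SKIL varies least among the genes with over 100 UMIs.

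Free RNA can carry such a profile into other droplets, and a limit for it was computed from ribosomal protein UMIs. If all ribosomal protein UMIs of a deep cluster had come with the ribosomal-rich profile, that profile would make up 15.9% of the trophectoderm-like and 16.6% of the unnamed cluster. At that limit the trophectoderm-like cluster would hold 24.1 CPM of LEFTY2 and 27.9 CPM of FST. The observed 21.9 and 22.7 CPM were 0.909 and 0.814 times the limit, so both lay within it. Reference genes outside the pathway, chosen after their values were seen, were at 1.02 (AFP), 1.24 (TTR), 1.26 (CGA) and 4.17 times (APOB) their limit in the same cluster.

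In the unnamed cluster the observed level was 3.36 times the limit for FST and 1.47 times for LEFTY2, while AFP, TTR, CGA and APOB were at 0.93, 0.987, 1.03 and 1.49 times. PMEPA1 was at 1.97 times its limit in the trophectoderm-like and 1.88 times in the unnamed cluster. SKIL was at 5.56 and 9.60 times and SMAD7 at 21.2 and 29.6 times, well clear of it. What share of the RNA in the deep clusters came from such a background was not tested.

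**Figure D3:**
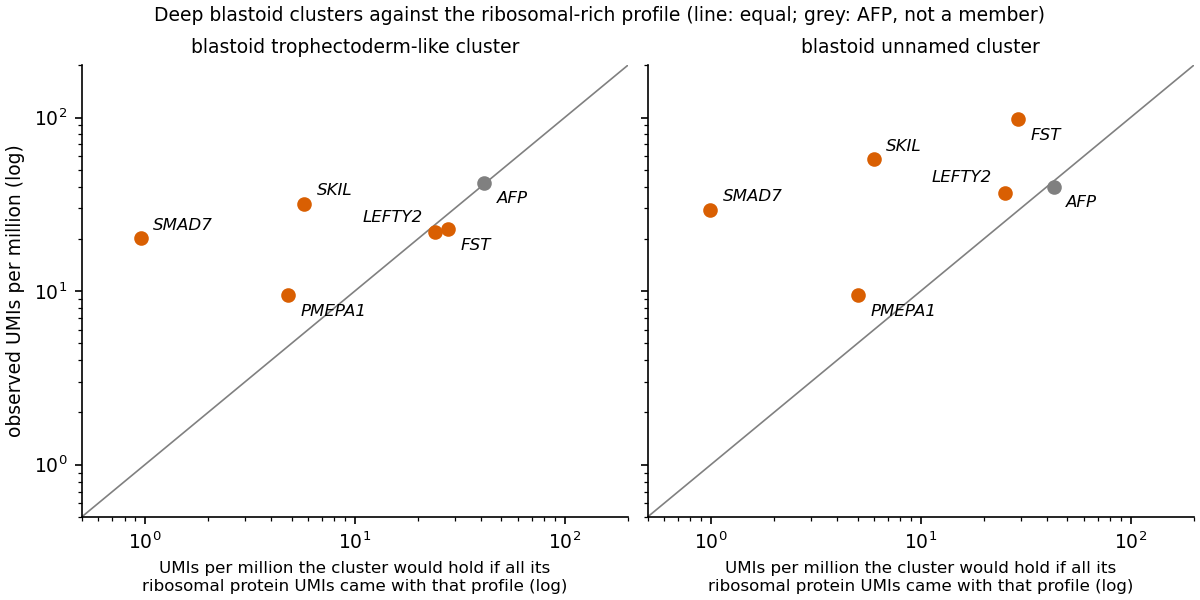
Observed level (vertical) against the level expected if all ribosomal protein UMIs of the cluster came with the ribosomal-rich profile (horizontal), in CPM on log axes, for the 5 members with over 100 UMIs and for AFP, in the 2 deep blastoid clusters. LEFTY2 and FST lie on or under the line in the trophectoderm-like cluster, FST lies above it in the unnamed cluster, and SKIL and SMAD7 lie above it in both.

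Leaving out the ribosomal-rich barcodes left the blastoid excess in place but smaller. In the remaining 295 blastoid nuclei FST was at 55.8 CPM and LEFTY2 at 28.5 CPM, against 0.583 and 5.54 CPM in the blastocyst. The log2 ratios were then 6.58 for FST, 2.36 for LEFTY2 and 2.33 for PMEPA1, in place of 7.51, 3.86 and 3.27. The count of genes at least 2-fold higher remained 4, but EOMES no longer had enough UMIs to be counted and NODAL passed 2-fold with a log2 ratio of 1.02. The share of all genes past 2-fold was not computed without those barcodes.

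In the blastocyst LEFTY2 was lower in the trophectoderm-like cluster than in the epiblast-like and hypoblast-like clusters. Its level was 10.5 CPM in the epiblast-like cluster (8 UMIs), 6.93 CPM in the hypoblast-like cluster (23 UMIs) and 0.865 CPM in the trophectoderm-like cluster (2 UMIs). The shallow unnamed cluster, rich in trophectoderm keratins, had LEFTY2 at 10.7 CPM from 5 UMIs (3.46 to 24.9). The hypoblast-like cluster exceeded the trophectoderm-like one 8.01-fold (1.98 to 70.1) and the epiblast-like one did so 12.1-fold (2.41 to 117). When shallow clusters were named too, a setting added after seeing the data, the log2 ratios over the trophectoderm-like cluster were 1.46 for the hypoblast-like and 2.06 for the epiblast-like cluster, in place of 2.42 and 3.01 with counts under 3 set to 3. Between the epiblast-like and the hypoblast-like cluster the ratio of 1.51 was within counting error (0.584 to 3.50). FST had 3 UMIs in the hypoblast-like cluster, 1 in the shallow cluster and 0 in both others.

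The intracellular brakes split. SMAD7, an inhibitory SMAD that blocks the type I receptors of the whole family and is induced by TGF-beta, activin and BMP signals, was lower in the blastoid. It had 124 blastoid UMIs (16.6 CPM, 13.8 to 19.8) and 412 blastocyst UMIs (60.04 CPM, 54.4 to 66.1), 3.62-fold lower (2.96 to 4.47). A UMI was seen in 5.02% of blastoid and 28.4% of blastocyst barcodes, and at 2000 UMIs per barcode in 2.16% and 9.43%. Without the ribosomal-rich barcodes the blastoid level was 24.3 CPM and the log2 ratio -1.30 in place of -1.86.

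SMAD7 also differed between the lineages of the blastocyst. It stood at 113 CPM in the trophectoderm-like cluster (261 UMIs, in 137 of 233 nuclei), 32.0 CPM in the hypoblast-like cluster (106 UMIs) and 13.1 CPM in the epiblast-like cluster (10 UMIs). It was 3.53-fold lower in the hypoblast-like (2.81 to 4.47) and 8.63-fold lower in the epiblast-like cluster (4.62 to 18.2) than in the trophectoderm-like one, and 2.44-fold lower in the epiblast-like than in the hypoblast-like cluster (1.28 to 5.24). The shallow cluster, which was rich in the trophectoderm keratins KRT8, KRT18 and KRT19, had 74.7 CPM (52.0 to 104). The 3 named clusters were thus in the order trophectoderm, hypoblast, epiblast. The step from hypoblast to epiblast, a log2 ratio of -1.29, was -0.49 with at least 1000 genes per barcode (22.65 CPM in the epiblast-like and 31.8 CPM in the hypoblast-like cluster). In 4 other settings the epiblast-like cluster held under 3 UMIs of SMAD7, too few for a size of the step: 6.02 CPM against 29.2 and 31.8 CPM at resolutions of 0.3 and 1.0, 8.47 against 34.75 CPM with a marker gate and 0 against 29.6 CPM after thinning.

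The trophectoderm-like cluster of the blastoid did not have that level. SMAD7 stood at 20.3 CPM there (49 UMIs in 36 of 154 nuclei), 5.58-fold lower (4.10 to 7.73) than in its blastocyst counterpart. The blastoid cluster was the deeper one, and after thinning the gene was seen in 3.33% of its nuclei (1.09% to 7.61%) against 18.7% (13.9% to 24.3%). GATA2, the trophectoderm factor, was at 335 CPM in the blastoid and 479 CPM in the blastocyst cluster, and GATA3 at 175 and 214 CPM. The summed trophectoderm markers were at 3798 and 2807 CPM and the summed hypoblast markers at 5676 and 5588 CPM. GATA6, counted as a hypoblast marker, was at 105 CPM in the blastoid and 545 CPM in the blastocyst cluster. Neural markers summed to 177 CPM in the blastoid and 21.2 CPM in the blastocyst cluster. Their part in the difference was not tested. Across the blastoid clusters SMAD7 was at 29.5 CPM in the unnamed cluster, not beyond counting error of the trophectoderm-like level (ratio 1.46, 0.974 to 2.18), and at 6.01 CPM in the ribosomal-rich barcodes.

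SKIL encodes SnoN, a nuclear co-repressor that binds SMAD2, SMAD3 and SMAD4 and is itself induced by the pathway. It had 300 blastoid UMIs (40.1 CPM, 35.7 to 44.9) and 188 blastocyst UMIs (27.4 CPM, 23.6 to 31.6). The ratio of 1.46 (1.22 to 1.77) was beyond counting error but under 2-fold. The same held for the pair of trophectoderm-like clusters (31.8 and 19.0 CPM, ratio 1.67, 1.14 to 2.48). In the blastocyst its levels were 34.0 CPM in the epiblast-like, 30.1 CPM in the hypoblast-like and 19.0 CPM in the trophectoderm-like cluster, and in the blastoid 57.4 CPM in the unnamed, 36.0 CPM in the ribosomal-rich and 31.8 CPM in the trophectoderm-like cluster.

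The trophectoderm-like cluster was thus the lowest of the named clusters for SKIL in the blastocyst, and the unnamed cluster was the highest in the blastoid. SKIL was 1.80-fold higher in the unnamed than in the trophectoderm-like blastoid cluster (1.33 to 2.45), while the ribosomal-rich barcodes did not differ from the latter beyond counting error (ratio 1.13, 0.841 to 1.53). The hypoblast-like and epiblast-like clusters exceeded the trophectoderm-like one 1.58-fold (1.10 to 2.31) and 1.79-fold (1.06 to 2.97).

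PMEPA1 encodes a membrane protein that binds SMAD2 and SMAD3, takes part in their turnover and is induced by TGF-beta. It had 137 blastoid UMIs (18.3 CPM, 15.4 to 21.7) and 13 blastocyst UMIs (1.90 CPM, 1.01 to 3.24), a ratio of 9.67 (5.47 to 18.6). In the trophectoderm-like pair the levels were 9.51 and 2.16 CPM (23 and 5 UMIs), a ratio of 4.40 (1.63 to 14.8). Within the blastoid it was at 30.4 CPM in the ribosomal-rich barcodes, and at 9.51 and 9.48 CPM in the trophectoderm-like and unnamed clusters, whose ratio of 0.997 had an interval of 0.507 to 1.93. In the blastocyst PMEPA1 was at 2.11 CPM in the hypoblast-like and 2.16 CPM in the trophectoderm-like cluster and at 0 UMIs in the epiblast-like cluster, which allows up to 3.93 CPM.

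EOMES, the T-box factor that NODAL signals induce in mesendoderm and that also marks trophoblast in the mouse, was scarce. It had 11 UMIs in 9 blastoid barcodes (1.47 CPM) and 3 UMIs in 3 blastocyst barcodes (0.437 CPM). The ratio of 3.36 had an interval of 0.888 to 18.8. In the blastoid 6 of the UMIs were in ribosomal-rich barcodes, 4 in the unnamed cluster (3 of them in a single nucleus) and 1 in the trophectoderm-like cluster.

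When only the trophectoderm-like clusters of the 2 sources were compared, 6 of the 9 genes were counted. Of these, 3 were at least 2-fold higher in the blastoid (LEFTY2, FST and PMEPA1), against 20.5% of 15010 counted genes, and SMAD7 was lower, against 14.2%. The median log2 ratio was 1.44 for the 6 genes and 0.09 for all counted genes. FST had 55 blastoid UMIs and 0 blastocyst UMIs, at least 17.5-fold higher against the floor of 3 counts in that cluster. LEFTY2 had 53 and 2 UMIs (21.9 and 0.865 CPM), a ratio of 25.3 (6.67 to 215). For both genes the blastoid level is the one that lay under the ribosomal-rich limit above. A marker gate of at least 2 UMIs of GATA2 and GATA3, in place of clusters, gave FST at 41.6 CPM and LEFTY2 at 30.3 CPM in the blastoid.

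**Figure D4:**
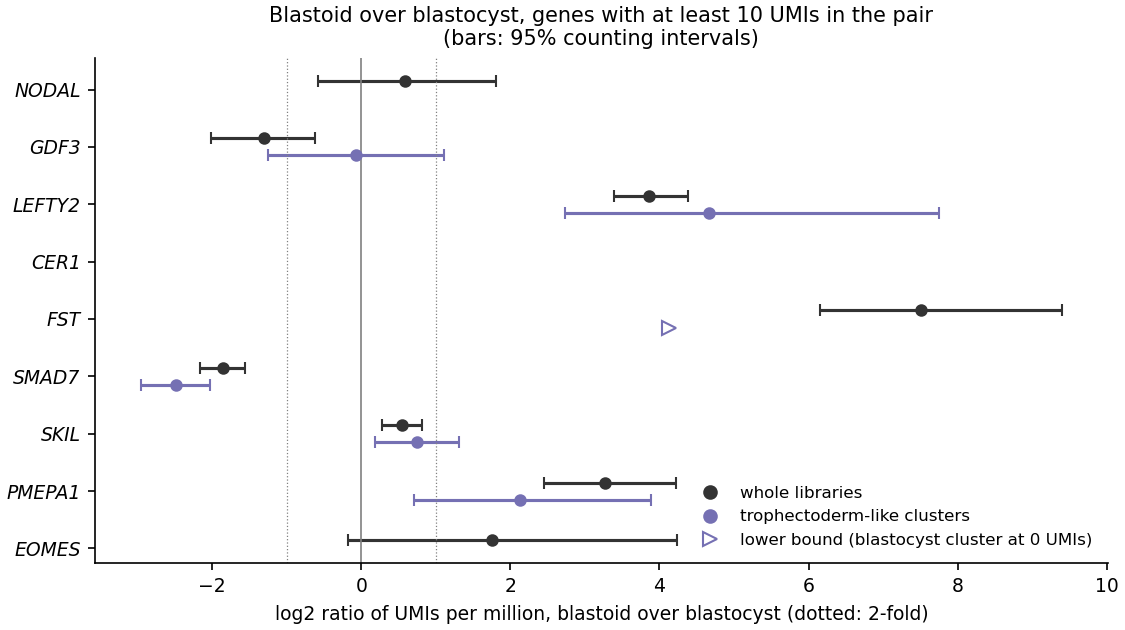
Log2 ratio of the level in the blastoid over that in the blastocyst for the genes with at least 10 UMIs in the pair, over whole libraries and over the trophectoderm-like clusters, with 95% counting intervals and dotted lines at 2-fold. LEFTY2, FST and PMEPA1 lie to the right and SMAD7 to the left in both comparisons, and GDF3 lies to the left in the whole libraries and near 0 in the trophectoderm-like clusters.

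Within the blastocyst, lineage counts were small. Of 5 genes counted between the hypoblast-like and the trophectoderm-like cluster, 1 was at least 2-fold higher (LEFTY2, against 18.8% of 15428 counted genes) and 1 lower (SMAD7, against 13.9%), where the median log2 ratio was 0.32 for the 5 and 0.22 for all genes. Of 4 counted between the epiblast-like and the trophectoderm-like cluster, 2 were higher (LEFTY2 and GDF3, against 18.1%) and 1 lower (SMAD7, against 14.6%). Between the epiblast-like and the hypoblast-like cluster 5 were counted, 2 higher (NODAL and GDF3, against 6.76%) and 1 lower (SMAD7, against 5.17%), and of these the interval excluded 1 for SMAD7 only. The epiblast-like values depended on the clustering: at resolutions of 0.3 and 1.0 the cluster so named held 16 nuclei, with LEFTY2 at 0, NODAL at 18.1 CPM, GDF3 at 30.1 CPM, SKIL at 84.3 CPM and SMAD7 at 6.02 CPM.

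Within the blastoid, 7 genes were counted between the unnamed and the trophectoderm-like cluster. FST and NODAL were at least 2-fold higher in the unnamed cluster, against 21.6% of 15411 counted genes, and GDF3 was lower, against 17.5%. Of the 3, the intervals of FST and GDF3 excluded 1. Nuclei differed in how many of the 9 genes they showed. In the unnamed cluster 27 of 141 nuclei had no UMI of any of them and 8 had UMIs of 4 or more. In the trophectoderm-like cluster 38 of 154 had none and 5 had 4 or more. In the ribosomal-rich barcodes 773 of 1619 had none. In the blastocyst, where nuclei were shallower than in the deep blastoid clusters, 76 of 233 trophectoderm-like and 228 of 396 hypoblast-like nuclei had none.

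The other genes of the pathway were taken from a list of 76 symbols in 7 groups, of which 71 were found. Of these, 64 were counted between the libraries, 21 at least 2-fold higher and 15 at least 2-fold lower in the blastoid. These shares can be set against the 24.2% and 20.7% of all genes. Their median log2 ratio was -0.07, and that of all genes -0.08. In the trophectoderm-like pair 52 were counted, 15 higher and 7 lower, where 20.5% and 14.2% of all genes were.

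Among the 10 counted ligands 4 were higher and 3 lower in the blastoid, to be read against the same shares of all genes, as are the other groups. INHBA, which encodes the subunit of activin A itself, had 20 blastoid UMIs (2.67 CPM) and 48 blastocyst UMIs (7.00 CPM), 2.62-fold lower (1.52 to 4.66). INHBB, the subunit of activin B, had 0 and 15 UMIs, at least 5.45-fold lower. Without ribosomal-rich barcodes the log2 ratio of INHBA was -0.83 in place of -1.39, while it was -2.37 after thinning and -2.98 with the mean of CPM per nucleus. BMP4, a ligand of the SMAD1/5 branch, was 5.54-fold higher in the blastoid (57.3 and 10.3 CPM), but in the trophectoderm-like pair its ratio was 0.560 (0.289 to 1.05). That direction depended on the clusters, since with the marker gate the log2 ratio of BMP4 in the pair was 0.88 in place of -0.84. BMP2 was 2.14-fold higher between libraries (1.46 to 3.20) and 6.69-fold higher in the trophectoderm-like pair (2.61 to 21.9). TGFB1 was 0.679-fold between libraries and 4.46-fold in that pair (28 and 6 UMIs).

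Among the 10 counted receptors 1 was higher and 2 lower. The activin type II receptor genes were both less abundant in the blastoid: ACVR2B was 3.26-fold lower (223 and 667 UMIs, 2.80 to 3.81) and ACVR2A 1.90-fold lower (505 and 880 UMIs, 1.70 to 2.12). In the trophectoderm-like pair they were 2.40-fold and 2.15-fold lower, and without ribosomal-rich barcodes the log2 ratio of ACVR2A between libraries was -0.39 in place of -0.93. It was -1.31 after thinning and -1.70 with the mean of CPM per nucleus. ACVR1B, the main activin type I receptor, had 37 and 51 UMIs (ratio 0.665, 0.424 to 1.04). Its log2 ratio of -0.59 was -0.05 without ribosomal-rich barcodes and -1.39 with the mean of CPM per nucleus. ACVR1B went the other way in the trophectoderm-like pair, 3.58-fold higher in the blastoid (15 and 4 UMIs, 1.14 to 14.8). ACVR1C had 5 and 1 UMIs between libraries. TGFBR2, the type II receptor of TGF-beta itself, was 7.40-fold higher in the blastoid (31.3 and 4.23 CPM) and 11.0-fold higher in the trophectoderm-like pair (66.6 and 6.06 CPM). After thinning its log2 ratios were 1.67 between libraries and 2.49 in the pair, in place of 2.89 and 3.46. Without ribosomal-rich barcodes the log2 ratio between libraries was 3.39.

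SMADs and their nuclear partners had 2 higher and 6 lower of 12. SMAD2 was 2.40-fold lower in the blastoid library (79.8 and 191 CPM) but 1.44-fold lower in the trophectoderm-like pair, and without ribosomal-rich barcodes its log2 ratio between libraries was -0.66. After thinning the log2 ratio of SMAD2 in the pair was 0.29 in place of -0.52, so its direction there depends on that choice. SMAD4 had a ratio of 0.817 (0.732 to 0.910), a log2 ratio of -0.29 that was 0.07 without ribosomal-rich barcodes. SMAD3 had a ratio of 1.08 (0.949 to 1.23), a log2 ratio of 0.11 that was 0.82 without ribosomal-rich barcodes and -1.18 with the mean of CPM per nucleus. In the trophectoderm-like pair SMAD3 was at 0.683 (0.495 to 0.937), a log2 ratio of -0.55 that was 0.40 with the marker gate, so no direction can be given for it. FOXH1, the DNA-binding partner of SMAD2, had 24 and 29 UMIs (ratio 0.759, 0.423 to 1.35), with a log2 ratio of -1.02 in place of -0.40 without ribosomal-rich barcodes. SMAD6, the inhibitory SMAD of the BMP branch, was 6.55-fold lower in the blastoid (16.7 and 110 CPM). It differed from SMAD7 by lineage, since SMAD6 stood at 203 CPM in the epiblast-like, 166 CPM in the hypoblast-like and 6.92 CPM in the trophectoderm-like cluster of the blastocyst. In the trophectoderm-like pair SMAD6 did not differ beyond counting error (ratio 1.49, 0.766 to 2.99). Its log2 ratio there was -0.65 in place of 0.58 when shallow clusters were named too. TGIF2, a co-repressor of SMAD2/3, was 6.00-fold lower between libraries (36 and 198 UMIs).

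Of 7 counted extracellular and membrane inhibitors 3 were higher and 1 lower. GREM1, a secreted BMP antagonist, had 564 blastoid and 0 blastocyst UMIs, at least 172-fold higher. FSTL3, a relative of follistatin that also binds activin, had 108 and 9 UMIs, 11.0-fold higher (5.59 to 24.7), and was 7.17-fold higher in the trophectoderm-like pair (2.53 to 28.0). FURIN, a protease that cuts TGF-beta family precursors, was 8.93-fold higher in the blastoid (152 and 17.1 CPM) and 3.63-fold higher in the trophectoderm-like pair. Without ribosomal-rich barcodes the log2 ratio of FURIN between libraries was 2.46 in place of 3.16. PCSK5, of the same enzyme family, was 2.50-fold lower between libraries (158 and 394 CPM, 2.33 to 2.68), with a log2 ratio of -0.67 in place of -1.32 without ribosomal-rich barcodes. PCSK5 was 13.45-fold lower in the trophectoderm-like pair (67.8 and 912 CPM), a log2 ratio of -3.75 that was -2.77 with the marker gate. Of the 9 genes of turnover and processing, 1 was higher and 2 lower between libraries.

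Of 10 other SMAD2/3 response genes 5 were higher and 1 lower in the blastoid. CCN2, a target of TGF-beta in many cells, was 5.98-fold higher (4.54 to 8.01), and its log2 ratio was 1.67 in place of 2.58 without ribosomal-rich barcodes. FGF8, a gene of the primitive streak, had 121 UMIs and 1 UMI, a ratio of 111 with an interval of 19.5 to 4419, and 104 of the 121 were in ribosomal-rich barcodes. Without those barcodes the log2 ratio of FGF8, with counts under 3 set to 3, was 3.17 in place of 5.21. OTX2, a factor of the epiblast and anterior hypoblast, was 51.0-fold lower in the blastoid (10 and 468 UMIs, 27.5 to 107). In the blastocyst OTX2 was at 111 CPM in the hypoblast-like, 82.4 CPM in the epiblast-like and 5.63 CPM in the trophectoderm-like cluster. Of 6 BMP response genes 5 were higher and 0 lower in the blastoid, where 24.2% and 20.7% of all genes were. Among the 5 were ID3 (377 and 7 UMIs, 49.4-fold, 23.7 to 124) and ID1 (3.62-fold, 2.79 to 4.74). Without ribosomal-rich barcodes the log2 ratio of ID1 was 0.61 in place of 1.86 and that of ID3 4.304 in place of 5.63. Of the other genes named above, it was 2.86 in place of 3.46 for FSTL3, 6.82 in place of 7.43 for GREM1 (0 blastocyst UMIs set to 3), -2.03 in place of -2.71 for SMAD6 and -4.88 in place of -5.67 for OTX2. For INHBB, with 0 blastoid UMIs set to 3, it was -1.65 in place of -2.45. That shift reflects only the smaller total of blastoid UMIs.

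**Figure D5:**
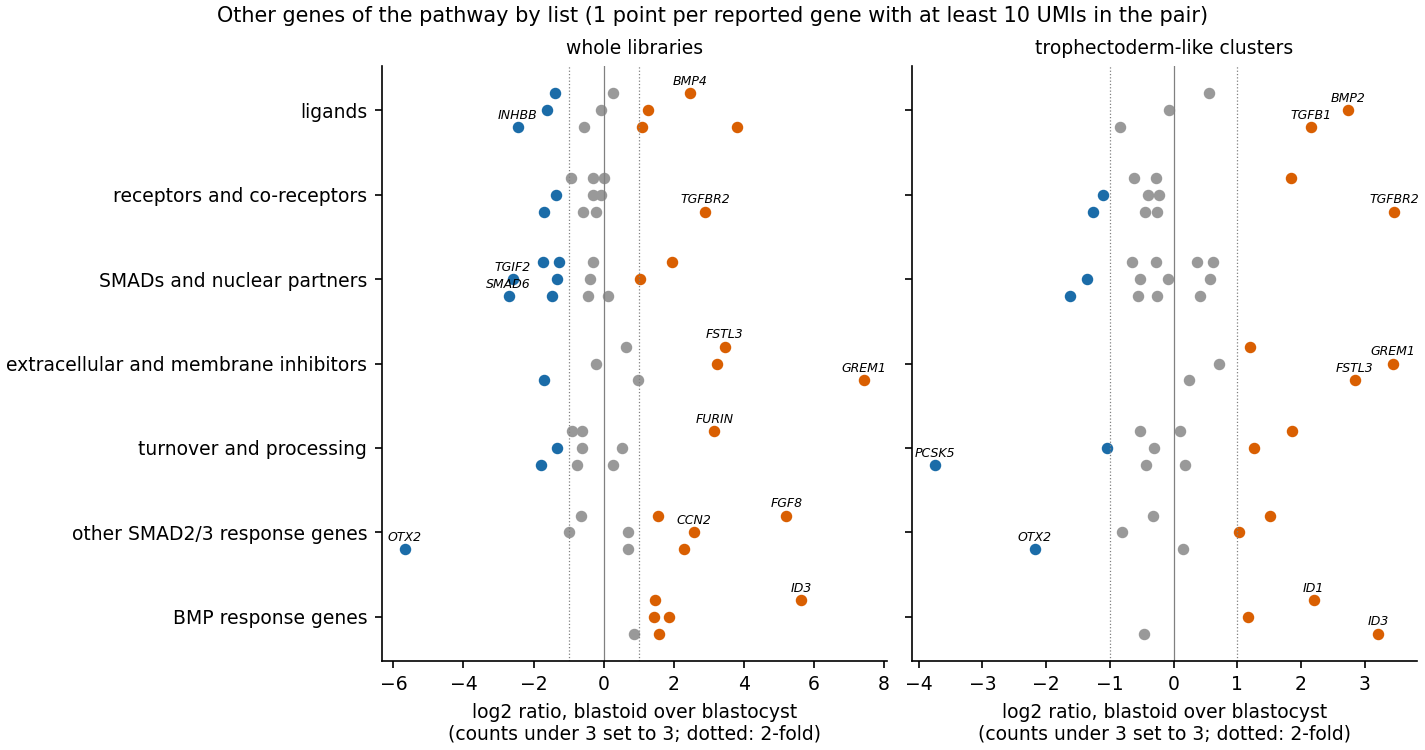
Log2 ratio of the level in the blastoid over that in the blastocyst for the counted genes of the 7 pathway groups that are reported here, over whole libraries and over the trophectoderm-like clusters, with counts under 3 set to 3 and dotted lines at 2-fold. Points lie on both sides in most groups, with GREM1 and ID3 far to the right, OTX2 far to the left in the whole libraries, and PCSK5 far to the left in the trophectoderm-like pair.

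For the 5 members with at least 100 UMIs, the genes whose log2(CPM + 1) over the 7 clusters was most like theirs were listed, among all genes with a symbol and at least 100 UMIs. These are descriptions over 7 points that share libraries and depth. LEFTY2 was closest to CHGA (Pearson r = 0.994), CACFD1 and DNAL4. CHGA encodes the granule protein chromogranin A, and it stood at 124 CPM in the ribosomal-rich, 37.4 CPM in the unnamed and 22.7 CPM in the trophectoderm-like blastoid cluster. FST was closest to HOXB8 (0.989), GSTT1 and RTN3, and HOXB8, a homeobox gene of posterior identity, had 264 UMIs in the ribosomal-rich barcodes and at most 1 in any blastocyst cluster. PMEPA1 was closest to RFC2 (0.987), IFNT3 and EMC2, where IFNT3 belongs to the interferon tau family, whose near-identical copies may share reads.

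SMAD7 had other neighbours: the laminin gene LAMC1 (0.985), DMXL1 and WDR44. SKIL was closest to CCNG2 (0.973), BTG3 and TMEM263. Among the members themselves, r was 0.926 for FST and PMEPA1 and 0.890 for FST and LEFTY2, while SMAD7 went against LEFTY2 with r = -0.812. The ribosomal-rich barcodes are 1 of the 7 points, and the correlations were not computed without them.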

How the data were processed

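The authors deposited matrices of UMI counts, one value for each gene and nucleus barcode, written by Cell Ranger 7.2.0 per the file headers, while the submitters' processing notes name Cell Ranger 7.1.0 and Seurat 4.3.0. The genome build, annotation, strand setting and cell calling are not given in the sources used here, and no coordinates or sequences are printed. Barcodes were kept if 500 genes or more were detected and mitochondrial UMIs were under 10%. Scrublet scores (scanpy 1.11.5) were used to remove likely doublets at a rate proportional to the number of barcodes, 30 of 1944 blastoid and 6 of 833 blastocyst barcodes. Each library was clustered alone on 2000 variable genes, 30 principal components and 15 neighbours (leidenalg 0.10.2, resolution 0.5).

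A cluster was named from at least 3 markers with at least 100 UMIs and 1.5 times the CPM of the other clusters, more than for any other class. Clusters with over 5% ribosomal protein UMIs were called ribosomal-rich, and clusters whose median depth times 3 fell short of the library's median stayed unnamed. The requirement of more markers than any other class was set after the cluster names had been seen. Ratios carry exact conditional 95% intervals, for genes with at least 10 UMIs in the pair, with counts under 3 set to 3 for medians and counts of genes. Pathway genes are named where they have at least 100 UMIs and differ 4-fold, or are activin receptors, subunits or their SMADs. Listed symbols that were not matched, among them TDGF1, CFC1, LEFTY1 and GSC, were not analysed here, and some listed genes are counted but not reported here by name. The 9 genes and all lists were chosen with earlier results of these data known. On simulated Poisson counts, 200 of 15014 genes, each with at least 30 UMIs, were changed 4-fold. They had the right direction in 100% of cases, and 96.4% of true ratios lay in their intervals. Of the unchanged genes, 4.96% passed 2-fold. The simulation held counting error only, whereas FST in the unnamed blastoid cluster varied 7.59 times as much as Poisson. It therefore does not show how well the intervals cover for such genes or for genes with fewer UMIs.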

Additional observations from a re-analysis of the deposited data

How the results depend on the processing

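Across 20 alternative settings, 3 of them chosen after seeing the data, none of the 25 ratios of the 9 genes that had passed 2-fold changed direction, and 16 of their 432 recomputed values left the counting interval. Some settings could not change a ratio, such as another fold limit, the interval rule or a higher UMI minimum, and their values are among the 432. After thinning, 13 ratios of the 9 genes stayed within their interval, 9 left it and the rest could not be counted. Of 16 ratios under 2-fold, 5 changed sign in at least 1 setting with counts under 3 set to 3 (11 of 279 values), among them NODAL between libraries, at -0.13 in place of 0.59 with the mean CPM per nucleus. The whole-library log2 ratio ranged from 6.02 to 7.90 for FST, 2.36 to 4.51 for LEFTY2 and 2.33 to 3.68 for PMEPA1. Thinning to 2000 UMIs leaves few UMIs to count. The genes at least 2-fold higher then numbered 1 in the trophectoderm-like pair, namely SKIL with a log2 ratio of 1.20. LEFTY2, FST and PMEPA1 had too few UMIs to be counted in that pair. In the epiblast-like cluster against either other lineage the genes higher numbered 0. Those lower numbered 1 between libraries, 0 between the unnamed and trophectoderm-like blastoid clusters and 0 between the epiblast-like and hypoblast-like clusters. The pathway genes higher in the trophectoderm-like pair numbered 5. The median log2 ratio of the members was then -0.78 in the trophectoderm-like pair, -2.48 for epiblast-like over trophectoderm-like, 1.35 for unnamed and 1.55 for ribosomal-rich over trophectoderm-like, and the log2 ratio of CCN2 in the trophectoderm-like pair was -0.38. With at least 30 UMIs per gene, the counts of higher genes were 0 for hypoblast-like and 0 for epiblast-like over trophectoderm-like, 1 for epiblast-like over hypoblast-like and 1 for the unnamed blastoid cluster, that of lower genes there 0, and the medians -1.14 for epiblast-like and 1.67 for ribosomal-rich over trophectoderm-like. Past 1.5-fold, 2 genes were higher in the hypoblast-like cluster, 4 in the unnamed cluster and 2 were lower in the ribosomal-rich barcodes, and pathway genes lower numbered 23 between libraries and 11 in the trophectoderm-like pair. The share of all genes was computed for none of the alternative settings, so their counts cannot be set against a general rate. Requiring the interval to exclude 1 left 1 gene higher in the unnamed cluster and 0 in the epiblast-like over the hypoblast-like cluster. The latter count was 4 at resolution 0.3, where LEFTY2, at 0 UMIs in the epiblast-like cluster there and at resolution 1.0, passed only because counts under 3 were set to 3, and 1 without doublet removal, with the mean CPM per nucleus or without the nucleus with most UMIs. No gene (0) was lower there with at least 1000 genes per barcode, at resolutions 0.3 and 1.0 or with the marker gate, and in the last 3 of these SMAD7 had under 3 UMIs, set to 3, in the epiblast-like cluster. Epiblast-like over trophectoderm-like, 1 gene was higher with the marker gate, the mean CPM, without the top nucleus or with shallow clusters named, and the median was 2.14 at resolution 0.3 and 2.15 at 1.0. Pathway genes lower between libraries numbered 9 with at least 4000 UMIs per barcode and 29 with the mean CPM. Some settings give no such cluster: epiblast-like with at least 200 genes per barcode, ribosomal-rich with at least 4000 UMIs or the gate, unnamed in the blastoid with these settings or with marker counts from 20 UMIs, trophectoderm-like in the blastoid when 2 times as many markers were required. Causes beyond fewer genes or nuclei counted were not tested. NODAL, EOMES and CER1 had the fewest UMIs of the 9 genes, with 18 and 11, 11 and 3, and 2 and 0 in the blastoid and the blastocyst.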

Other observations

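In the unnamed blastoid cluster, the 10 UMIs of NODAL all lay among the 60 nuclei with a UMI of FST and 0 among the 81 without one. The median depth was 11768 UMIs in the former and 10466 in the latter. LEFTY2 was at 50.7 CPM in the nuclei with FST and 25.7 CPM in those without, whereas SKIL was at 38.9 and 72.3 CPM. The adhesion gene TENM2 was at 482 and 96.1 CPM, the retinoic acid receptor gene RARB at 184 and 52.3 CPM, and the axon guidance receptor gene DCC at 1615 and 3288 CPM. These genes were chosen after their values were seen, and nuclei of 1 library are not replicates.

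The trophectoderm-like blastoid cluster was also uneven. The 41 nuclei with a UMI of FST (median 15485 UMIs) held LEF1, a WNT effector, at 145 CPM and CDH6, a cadherin gene, at 160 CPM, and the 113 without (13702 UMIs) held them at 7.60 and 18.1 CPM. GATA2 was at 328 and 338 CPM in these groups. LEF1 was at 23.4 CPM in the 45 nuclei with a UMI of LEFTY2 and 58.6 CPM in the others. With a UMI of SMAD7 (36 nuclei) LEF1 was at 126 CPM, and without at 16.3 CPM. The split by SKIL (50 nuclei with a UMI) gave 90.5 and 21.0 CPM of LEF1, and that by PMEPA1 (21 nuclei) 176 and 20.6 CPM. The nuclei with a UMI of SMAD7, SKIL or PMEPA1 were deeper (medians of 17610, 17610 and 19677 UMIs) than those without (13380, 13162 and 13776). LEF1 had 103 UMIs in the nuclei with FST and 13 in those without. It had 88 UMIs in the nuclei with SMAD7, 85 in those with SKIL and 75 in those with PMEPA1. At most 13 UMIs of each count can lie in nuclei without FST, so most lay in nuclei that also had FST. The splits by FST, SMAD7, SKIL and PMEPA1 are therefore not separate observations of LEF1. How many nuclei these sets share was not counted, nor how many nuclei held the LEF1 UMIs. In the unnamed cluster LEF1 was at 439 CPM in the nuclei with FST (395 to 486) and 501 CPM in those without (459 to 546), intervals that overlap, and CDH6 was lower in those with FST (1312 CPM, 1236 to 1392) than in those without (1637 CPM, 1560 to 1716).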
